A study of Homo sapiens with 48 samples.

Results

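The comparison described here is STM2457 against DMSO in NGP cells after 6 days, in the libraries that received no actinomycin D. Its 4 libraries, 2 with STM2457 and 2 with DMSO, were chosen by their labelled line, treatment, duration and actinomycin D time, out of 48 in the series and 24 from NGP. NGP is a human neuroblastoma cell line, labelled wild type and MYCN-amplified. STM2457, an inhibitor of the methyltransferase METTL3, was given at 8 µM, and DMSO is the solvent of the control arm. The other groups used below are NGP cells treated in the same way for 3 days without actinomycin D, NGP cells treated for 6 days and then given 10 µg/ml actinomycin D for 3 or 6 h, and Kelly cells, a second MYCN-amplified neuroblastoma line, treated for 6 days without actinomycin D. Each of these groups holds 2 libraries, and the labels do not say whether the 2 are separate cultures, so the p-values may measure technical spread only. Poly(A) RNA was sequenced, and each value starts from a count of read pairs (fragments) assigned to a gene.

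METTL3 places N6-methyladenosine (m6A) on mRNA, and reader proteins of this mark act on splicing, translation and decay of the marked transcripts. Neuroblastoma arises from sympathetic precursor cells, and MYCN-amplified lines grow under a transcription factor circuit that includes HAND2 and GATA3. Much of what follows concerns the integrated stress response (ISR). In that pathway kinases sensing amino acid shortage, unfolded protein or other stress phosphorylate the initiation factor eIF2, the mRNA of the transcription factor ATF4 is then translated more, and ATF4 with C/EBP partners turns on genes of amino acid synthesis, uptake and tRNA charging.

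The 4 libraries held 14295792 to 16999084 fragments in genes, against 11139550 to 21942238 over all NGP libraries. Synthetic ERCC spike-in RNA made up 0.325 to 0.336% of their fragments and mitochondrial genes 4.62 to 5.49%. The first principal component of the 4 libraries carried 65.2% of the variance and separated the treatments. Of the neuroblastoma markers, MYCN, HAND2, GATA3, ISL1, DBH and CHGA were present, while TH, the first enzyme of catecholamine synthesis, stayed at 0.114 to 1.04 CPM, fragments scaled to library size. Of 8 tested markers of other cell types PDGFRB was at 64.9 and 74.6 CPM in DMSO and 68.6 and 61.4 in STM2457 (log2 -0.10 ± 0.14, not called), and the rest reached at most 7.74 CPM. METTL3 mRNA (chromosome 14, positions 21498133 to 21511342) was at 49.2 and 57.4 CPM in DMSO and 55.8 and 55.2 in STM2457, a difference of 0.058 ± 0.15 on the log2 scale. STM2457 acts on the protein, so this level does not check the treatment label. MYCN (chromosome 2, positions 15940550 to 15947007) was at 6544 and 8645 CPM in DMSO and 6857 and 7530.5 in STM2457. Its difference of -0.078 ± 0.056 did not pass the test, and it was called lower without DMSO replicate 1 (-0.27) or STM2457 replicate 2 (-0.15) and higher without DMSO replicate 2 (0.14).

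After 6 days with STM2457, NGP cells had far less mRNA of stress-response and amino acid genes than the DMSO controls, and more mRNA of mitotic and sterol synthesis genes and of several chaperones. Of 14661 genes tested, 1172 (7.99%) passed edgeR's quasi-likelihood test at a Benjamini-Hochberg adjusted p of 0.05, and are said to be called. Of these 652 were higher (4.45% of the genes tested) and 520 lower (3.55%). The spread was pooled over the 12 NGP groups, and the SE given after ± rests on that pooled spread, not on these 4 libraries alone. Most differences were small: the median absolute log2 difference of the called genes was 0.54, with 64 genes over 2-fold higher and 128 over 2-fold lower. Above 4-fold the lower side led, with 37 genes against 10. In every called gene both STM2457 libraries lay on the same side of both DMSO libraries, which also held for 48% of all genes tested. When the libraries were scaled to the ERCC spike-ins, 462 genes were called higher and 580 lower, so 44.3% of the calls were on the higher side instead of 55.6%. The median of all genes was then -0.017 in place of 0.020. No gene called here changed sign under any alternative processing. Since the arms of every called gene lay apart, leaving out 1 library could hardly turn a sign. The scalings moved the median of all genes little, so the unchanged signs are no separate evidence. In these bulk libraries, fewer cells expressing a gene and less of its RNA per cell cannot be told apart. Gene groups below are set against the shares of all genes called, 4.45% higher and 3.55% lower, and a log2 median of 0.020.

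**Figure D1:**
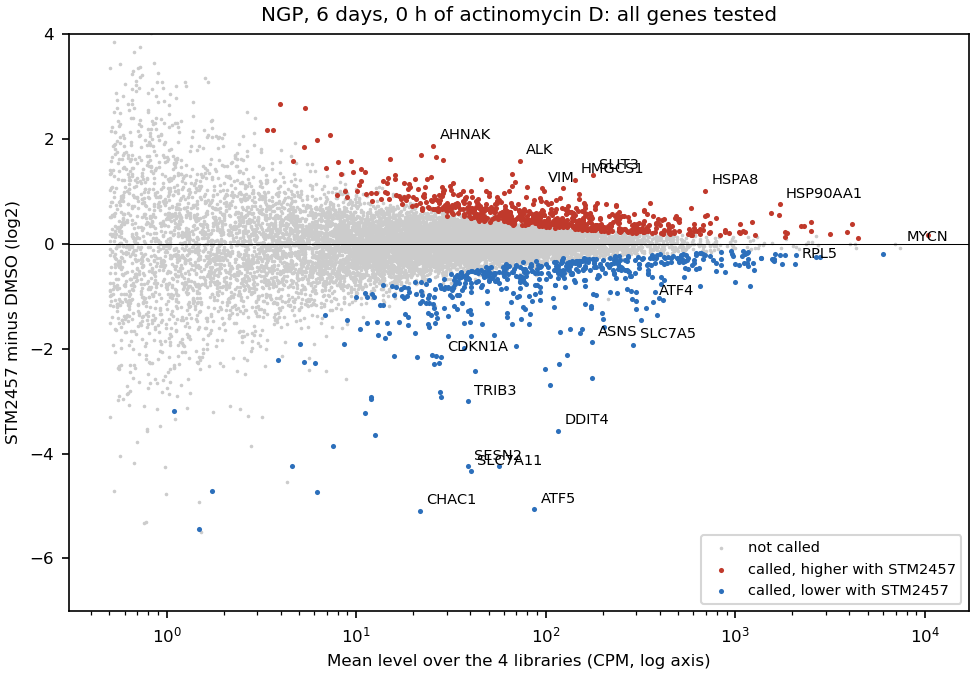
Mean level over the 4 libraries (CPM, log axis) against the log2 difference, STM2457 minus DMSO, for the genes tested in NGP at 6 days. Each point is a gene; genes under 0.5 CPM or outside the vertical axis are left out, among them 7 called genes. Among the lowest points drawn above 10 CPM are the ISR genes CHAC1 (-5.09) and ATF5 (-5.07), while called genes on the higher side mostly stay below 2.

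Of the gene lists, the ISR regulators had the median farthest from 0. Of 20 listed regulators 19 were tested, and 17 were lower with STM2457 and none higher, with a median log2 difference of -2.39. ATF4 itself (chromosome 22, positions 39519695 to 39522685) was at 483 and 517 CPM in DMSO and 236 and 228 in STM2457. Its difference of -1.11 ± 0.085 is a 2.15-fold lower level. ATF5 (chromosome 19, positions 49928702 to 49933935), a transcription factor whose mRNA is translated under the same control as that of ATF4, was at 145 and 192 CPM in DMSO and 6.64 and 3.32 in STM2457. It was 33.9-fold lower (log2 -5.07 ± 0.29, adjusted p = 2.75e-25 by edgeR's quasi-likelihood test). About 19.5% of its exon bases overlap NUP62 on the other strand, and the counting is not stated to use strand. CHAC1 (chromosome 15, positions 40952962 to 40956512), which degrades glutathione, was at 43.9 and 40.2 CPM in DMSO and 1.53 and 0.911 in STM2457, 34.4-fold lower. In each of these genes the groups do not overlap. Both STM2457 libraries reached at most 6.64 CPM in ATF5 and 1.53 in CHAC1, while ATF4 stayed at 228 CPM or above.

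Other ISR transcription factors followed. DDIT3 (CHOP) was at 51.6 and 47.2 CPM in DMSO and 5.28 and 7.81 in STM2457, though 27.2% of its exon bases overlap MARS1, itself lower. ATF3 differed by -2.83 ± 0.45, CEBPB by -1.95 ± 0.25, JDP2 by -1.80 ± 0.46 and CEBPG, a frequent ATF4 partner, by -1.04 ± 0.13. TRIB3, a pseudokinase that restrains ATF4 and AKT, was at 64.0 and 74.7 CPM in DMSO and 9.82 and 7.48 in STM2457. The inhibitors of mTORC1 signalling SESN2 and DDIT4 showed 2 of the largest gaps. SESN2 was at 70.9 and 77.0 CPM in DMSO and 3.75 and 4.10 in STM2457, 18.9-fold lower. DDIT4 was at 206 and 222 CPM in DMSO and 19.4 and 16.7 in STM2457, 11.8-fold lower. PPP1R15A (GADD34), which directs the removal of the phosphate from eIF2, differed by -1.35 ± 0.27. The weakest called member was EIF4EBP1, a translation repressor, at -0.65 ± 0.084. The secreted factors FGF21 and GDF15, the tested members not called, had no fragment in either STM2457 library and 1.79 and 2.86 CPM (FGF21) or 1.08 and 1.84 CPM (GDF15) in DMSO. Against the limit that a count of 0 allows (3 fragments per library), FGF21 was at least 12.7-fold lower. NUPR1 had at most 5 fragments and was not tested.

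**Figure D2:**
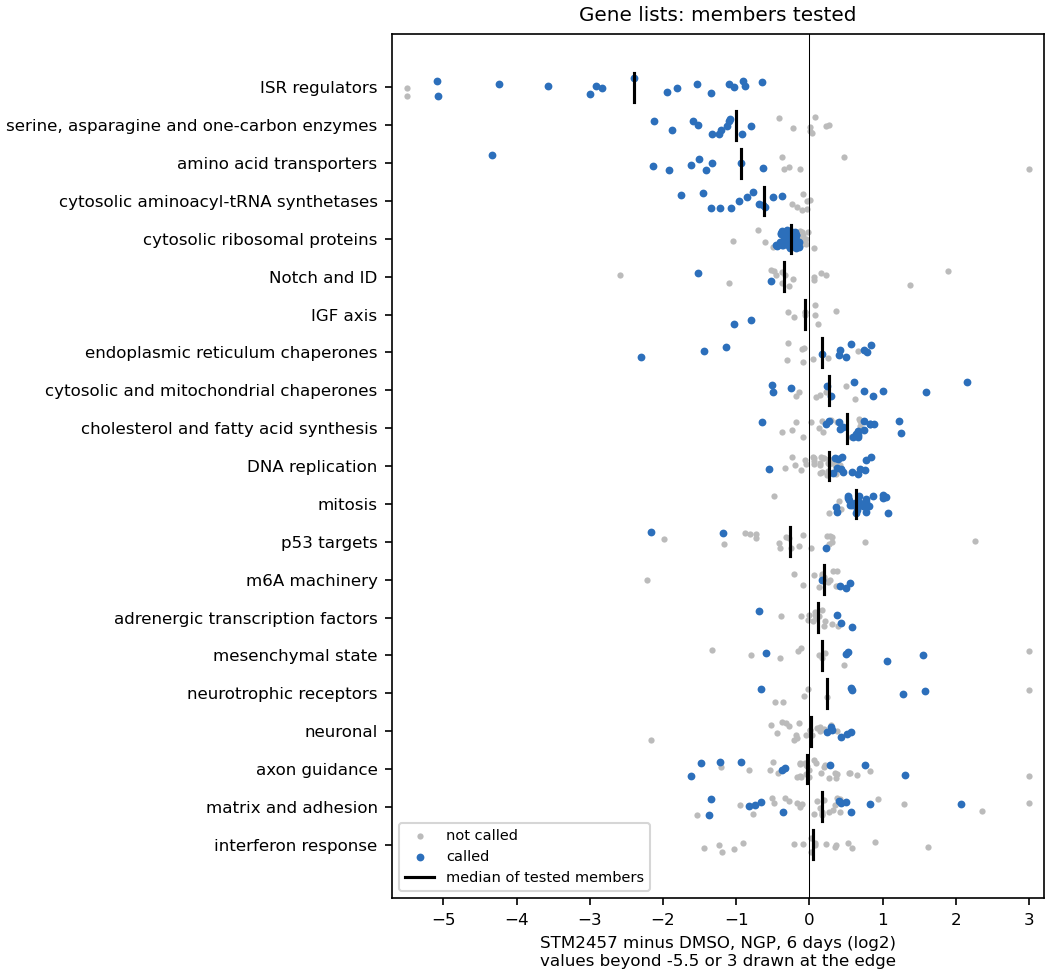
Log2 difference (STM2457 minus DMSO, NGP, 6 days) of each tested member of 21 gene lists; blue points passed the test, grey points did not, and the black bar is the list's median. The 4 amino acid and ISR lists have no called member above 0, while mitosis has 27 called members, all above 0.

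The enzymes that make serine, asparagine and one-carbon units were lower in STM2457 in 12 of 20 tested genes, and none was higher (median -1.0). ASNS, asparagine synthetase (chromosome 7, positions 97851677 to 97872542), was at 283 and 266 CPM in DMSO and 78.2 and 71.3 in STM2457, 3.67-fold lower (log2 -1.88 ± 0.11, adjusted p = 6.46e-25 by edgeR's quasi-likelihood test). In the serine pathway PSAT1 was at 316 and 289.9 CPM in DMSO and 101 and 101 in STM2457, a difference of -1.59 ± 0.093. PSPH, the last step, differed by -1.33 ± 0.16, and PHGDH, the first, by -0.91 ± 0.073. The mitochondrial folate enzymes were lower: SHMT2 (-1.24), MTHFD2 (-1.09, with 27.5% of its exon bases overlapping SLC4A5), ALDH1L2 (-1.10) and MTHFD1L (-0.79). Their cytosolic counterparts did not pass: SHMT1 was at 0.27 and MTHFD1 at 0.029. GPT2, which interconverts alanine and glutamate in mitochondria, showed the largest difference of the list, with 218 and 205 CPM in DMSO and 44.6 and 52.4 in STM2457. CTH (-1.52), of cysteine synthesis, PYCR1 (-1.21), of proline synthesis, and GOT1 (-1.12), of aspartate synthesis, were lower as well.

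Amino acid import followed the same direction in 9 of 15 tested transporters, with none called higher (median -0.93). Of the 18 listed, 3 had too few fragments. Of the 15 tested, 2 lay above 0, the highest at a log2 of 5.09, and neither passed. With the 0 h libraries alone or without the filter on low counts, 1 transporter was called higher. SLC7A11, which brings in cystine for glutathione (chromosome 4, positions 138164097 to 138242349), was at 84.2 and 69.1 CPM in DMSO and 4.03 and 3.51 in STM2457, 20.3-fold lower. SLC7A5, the large neutral amino acid carrier, was at 444 and 475 CPM in DMSO and 129 and 113 in STM2457, and its heavy chain SLC3A2 was at 186 and 218 CPM in DMSO and 57.8 and 73.5 in STM2457. SLC6A9 differed by -2.13 ± 0.45, SLC1A4 by -1.51 ± 0.23, SLC1A5 by -1.33 ± 0.10 and SLC7A1 by -0.93 ± 0.09. SLC38A2, a transporter that responds to amino acid supply in many cells, was at -0.28 and did not pass. It was called lower with spike-in scaling (-0.32), DESeq2 (-0.28), limma-voom (-0.28) and the 0 h libraries alone (-0.30).

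Of 20 cytosolic aminoacyl-tRNA synthetases, which load amino acids onto tRNAs, 13 were lower and none higher (median -0.62). CARS1 differed by -1.75 ± 0.18, AARS1 by -1.46 ± 0.085, GARS1 by -1.35 ± 0.078, MARS1 by -1.22 ± 0.077 and WARS1 by -1.08 ± 0.12. AARS1 was at 433 and 503 CPM in DMSO and 174 and 167 in STM2457, with no overlap between the arms. At the other end, HARS1 was at 0.01, RARS1 at -0.03, FARSA at -0.037 and VARS1 at -0.095, none of which passed.

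Since these genes moved together, their promoters were searched for TGATGNAA, the composite element that ATF4 and C/EBP factors bind, on both strands, in windows from 250 bases before to 50 bases after the RefSeq start (GRCh38.p14). A window was found for 11545 of the 14661 genes tested, and 203 of these windows (1.76%) held a match. Among called genes the share was 9 of 530 (1.70%) for those higher and 30 of 393 (7.63%) for those lower, and 14 of 102 (13.7%) for those over 2-fold lower. By list, a match stood in 3 of 17 windows of ISR regulators, 3 of 14 of serine, asparagine and one-carbon enzymes, 3 of 12 of transporters and 6 of 16 of tRNA synthetases. It stood in none of 25 mitosis and none of 35 replication windows. The following 7 stretches are shown because they hold the element (in capitals) before the RefSeq start of lower ISR regulators, enzymes and tRNA synthetases. They are read 5′ to 3′ on the gene's strand.
CHAC1, chr15:40953221-40953319, plus strand: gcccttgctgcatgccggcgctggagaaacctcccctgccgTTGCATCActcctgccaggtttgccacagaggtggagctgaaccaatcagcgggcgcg
ATF3, chr1:212565166-212565273, plus strand: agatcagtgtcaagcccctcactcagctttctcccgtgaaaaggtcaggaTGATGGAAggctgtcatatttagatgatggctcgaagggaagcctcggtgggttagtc
ASNS, chr7:97872419-97872526, minus strand: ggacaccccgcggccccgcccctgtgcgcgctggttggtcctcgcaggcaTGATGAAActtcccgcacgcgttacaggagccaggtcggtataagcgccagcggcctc
GOT1, chr10:99430765-99430872, minus strand: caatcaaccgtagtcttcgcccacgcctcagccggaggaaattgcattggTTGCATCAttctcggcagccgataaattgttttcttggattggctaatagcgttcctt
MTHFD1L, chr6:150866307-150866414, plus strand: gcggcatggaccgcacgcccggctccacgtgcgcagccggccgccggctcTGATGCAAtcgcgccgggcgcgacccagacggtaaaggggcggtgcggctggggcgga
AARS1, chr16:70289636-70289743, minus strand: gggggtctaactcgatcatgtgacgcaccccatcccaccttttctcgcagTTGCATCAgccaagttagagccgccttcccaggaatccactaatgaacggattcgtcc
IARS1, chr9:92293698-92293760, minus strand: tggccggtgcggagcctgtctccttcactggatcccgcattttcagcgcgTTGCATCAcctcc
The transporter matches, in SLC3A2, SLC7A1 and SLC38A1, reach or follow the start and are not shown. In CHAC1, GOT1, AARS1 and IARS1 the element is read from the other strand. Its first base lies 209 bases before the RefSeq start in CHAC1, 68 in ASNS and 13 in IARS1. The CHAC1 and ASNS stretches lie inside the counted gene spans given above, which start farther upstream than RefSeq does. A match is a description of the letters, and binding was not measured. FUT1, a fucosyltransferase named for the size of its change and no member of the lists, starts beside FGF21 on the opposite strand of chromosome 19, and the windows of both genes hold the same match.
FGF21, chr19:48755420-48755523, plus strand: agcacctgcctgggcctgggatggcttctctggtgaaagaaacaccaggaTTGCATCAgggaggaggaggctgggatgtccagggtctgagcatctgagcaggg
FUT1 (chromosome 19, positions 48748011 to 48755390) had 325 and 447 fragments in DMSO (17.6 and 28.4 CPM) and none in either STM2457 library, which makes it at least 126-fold lower against 3 fragments per library. It is the called gene over 10 CPM with the largest difference. The call was lost with DESeq2 (adjusted p = 0.351, log2 -11.01).

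Other genes among the 15 largest lower differences above 10 CPM encode secreted and nuclear factors. INHBE, an activin subunit, was at 101 and 115 CPM in DMSO and 6.64 and 4.68 in STM2457, and its neighbour INHBC at 21.9 and 20.3 CPM in DMSO and 2.84 and 2.67 in STM2457. The transcription factor gene SP8 was at 22.9 and 23.7 CPM in DMSO and 1.14 and 2.60 in STM2457. NHLH1, a neuronal basic helix-loop-helix factor, was at 21.3 and 21.2 CPM in DMSO and 4.14 and 1.30 in STM2457, and its call was lost without STM2457 replicate 2 (log2 -2.35). NDUFA4L2, a mitochondrial protein often raised by hypoxia, differed by -3.22 ± 0.45. AKNA, a centrosome-associated protein and one of the 10 genes of smallest p, was at 288 and 314 CPM in DMSO and 49.6 and 52.0 in STM2457.

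The same genes were measured at 3 days, in separate libraries, and at that time the 2 arms were much closer. Of the 19 ISR regulators 3 were called lower and none higher at 3 days (background 3.70% of all genes in either direction), with a median of -0.23. Of 20 serine, asparagine and one-carbon enzymes 6 were already lower (median -0.18), and of 20 tRNA synthetases 6 (median -0.20). No member of these lists was called higher, and none of the 15 transporters was called. ERCC scaling of the comparisons from here on, added after the data had been seen, moved the median of all genes at 3 days to 0.098 and the 3-day calls from 183 higher and 359 lower to 418 and 138; the ISR median was then -0.12, with 2 lower. On that scale 2 of the enzymes and 1 of the tRNA synthetases were lower at 3 days. DDIT4 was at 19.9 and 21.9 CPM in DMSO and 18.5 and 19.6 in STM2457 at 3 days, and CHAC1 at 1.64 and 3.35 CPM in DMSO and 3.06 and 3.72 in STM2457. ATF4 was at 280.2 and 284 CPM in DMSO and 257 and 249 in STM2457, SLC7A5 at 159 and 169 CPM in DMSO and 161 and 142 in STM2457 and ASNS at 94.1 and 87.9 CPM in DMSO and 67.0 and 66.2 in STM2457. For these 5 genes the DMSO libraries at 6 days stand above all 6 other libraries. ATF5, one of the 3 already called, was at 16.5 and 15.5 CPM in DMSO and 7.36 and 3.47 in STM2457.

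A contrast of 6 against 3 days within each arm, added after the 6-day result was seen, put numbers on this. It shares the 6-day libraries with the main comparison and is no independent evidence of it. In DMSO, 1772 genes (12.1%) were called between 3 and 6 days. The ISR list rose there by a median of 2.06, with 15 of 19 called higher and none lower, while in STM2457 its median was -0.11 with none called. ATF4 rose by 0.83 ± 0.085 in DMSO (adjusted p = 6.21e-13 by edgeR's quasi-likelihood test) and stood at -0.12 ± 0.085 in STM2457 (adjusted p = 0.602). DDIT4 rose by 3.35 ± 0.25 in DMSO and was at -0.08 ± 0.24 in STM2457. The tRNA synthetases had a median of 0.59 in DMSO (14 of 20 called higher) against 0.0027 in STM2457 (2 called higher). For the transporters these medians were 0.95 and -0.065. Mitosis genes moved the other way in DMSO, with a median of -0.81 and 28 of 31 called lower, against -0.12 and 5 called lower in STM2457. Scaled to the spike-ins, the median of all genes from 3 to 6 days moved to -0.15 in DMSO and -0.30 in STM2457, from 0.0066 and 0.012, so the values above are close to changes relative to the median gene. On the spike-in scale the ISR median was 1.89 in DMSO (14 higher) and -0.43 in STM2457 (6 lower), and ATF4 in STM2457 was called lower (-0.44). The tRNA synthetases then had 0.42 in DMSO and -0.31 in STM2457, where 13 were lower and none higher. Transporters had 0.79 and -0.38, and mitosis genes -0.98 and -0.44 (30 and 22 lower). The part of the control culture's own change in the 6-day differences was not tested.

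**Figure D3:**
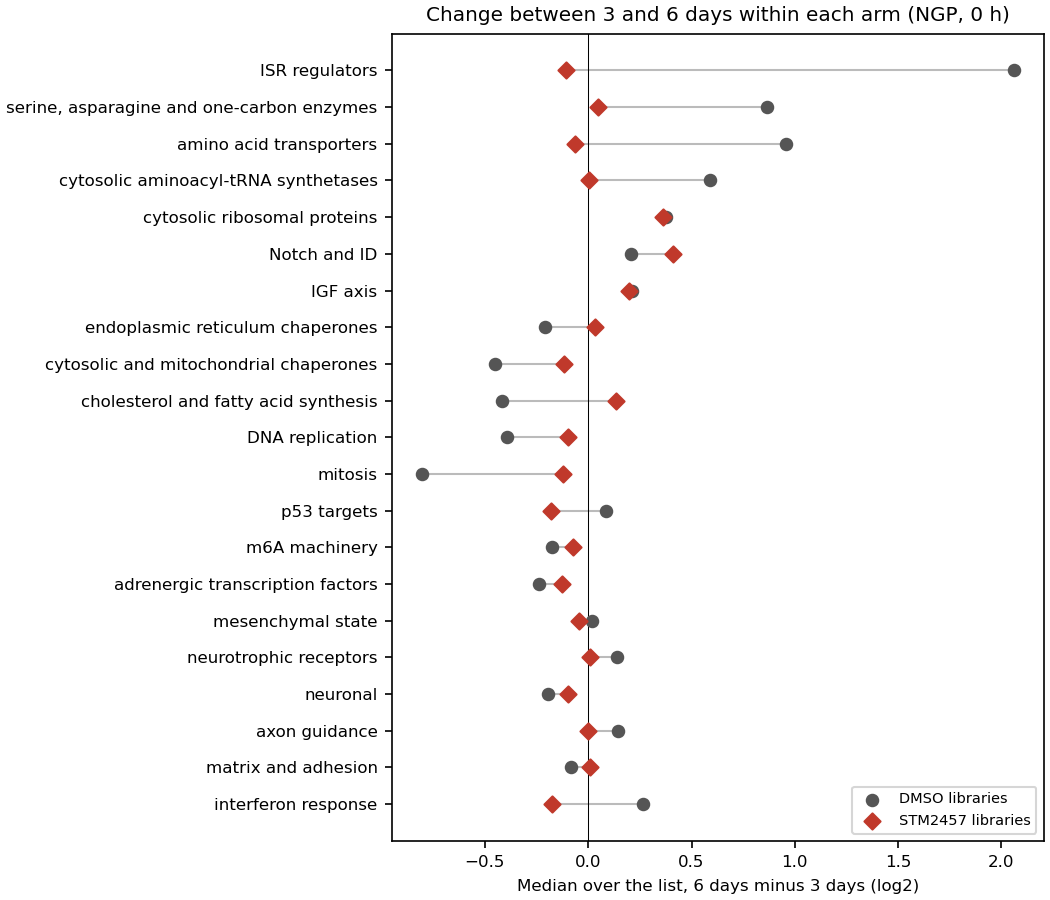
Median log2 change from 3 to 6 days for 21 gene lists, separately in the DMSO libraries (grey circles) and the STM2457 libraries (red diamonds) of NGP without actinomycin D. The ISR list stands at 2.06 in DMSO and -0.11 in STM2457, and the mitosis list at -0.81 and -0.12. Values are TMM-scaled; on the spike-in scale the median of all genes lies at -0.15 in DMSO and -0.30 in STM2457, and the ribosomal protein list of STM2457 goes from 0.36 to 0.049.

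Whether the drug difference itself changed with duration was tested as the 6-day minus the 3-day difference. It was called for 410 genes (2.80%), 257 upward and 153 downward (102 and 267 with spike-in scaling, which moved the median of all genes from 0.024 to -0.12), and 324 of them were also called at 6 days. In 316 of these 324 the difference was larger at 6 days, and in 208 it had the opposite sign at 3 days (183 of 290 with spike-in scaling). Both calls use the same 6-day libraries, so choosing genes by both favours a larger difference at 6 days. These counts follow largely from that choice and are no separate evidence on duration. Called downward were 14 of 19 ISR regulators, 11 of 20 serine, asparagine and one-carbon enzymes, 9 of 15 transporters and 11 of 20 tRNA synthetases. Called upward were 27 of 31 mitosis genes and 11 of 32 cholesterol and fatty acid genes. With spike-in scaling the downward counts were 14, 11, 10 and 12, and the upward ones 23 and 6. Above 10 CPM, the 4 genes of smallest p in the downward direction were DDR2 (-1.40 ± 0.095), UNC5B (-1.96 ± 0.14), SLC7A5 (-1.81 ± 0.13) and PSAT1 (-1.66 ± 0.13). DDR2, a collagen receptor, was at 287 and 285 CPM in DMSO and 359.7 and 359 in STM2457 at 3 days and at 578 and 546 CPM in DMSO and 272 and 263 in STM2457 at 6 days. It was therefore higher with STM2457 at 3 days (0.33 ± 0.067) and lower at 6 days (-1.07 ± 0.067), and both passed. UNC5B, a netrin receptor, showed the same pair of directions (0.34 ± 0.098 and -1.62 ± 0.10). In the upward direction the 4 genes were HSP90AA1, HSPA8, HSP90B1 and TUBA1B.

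**Figure D4:**
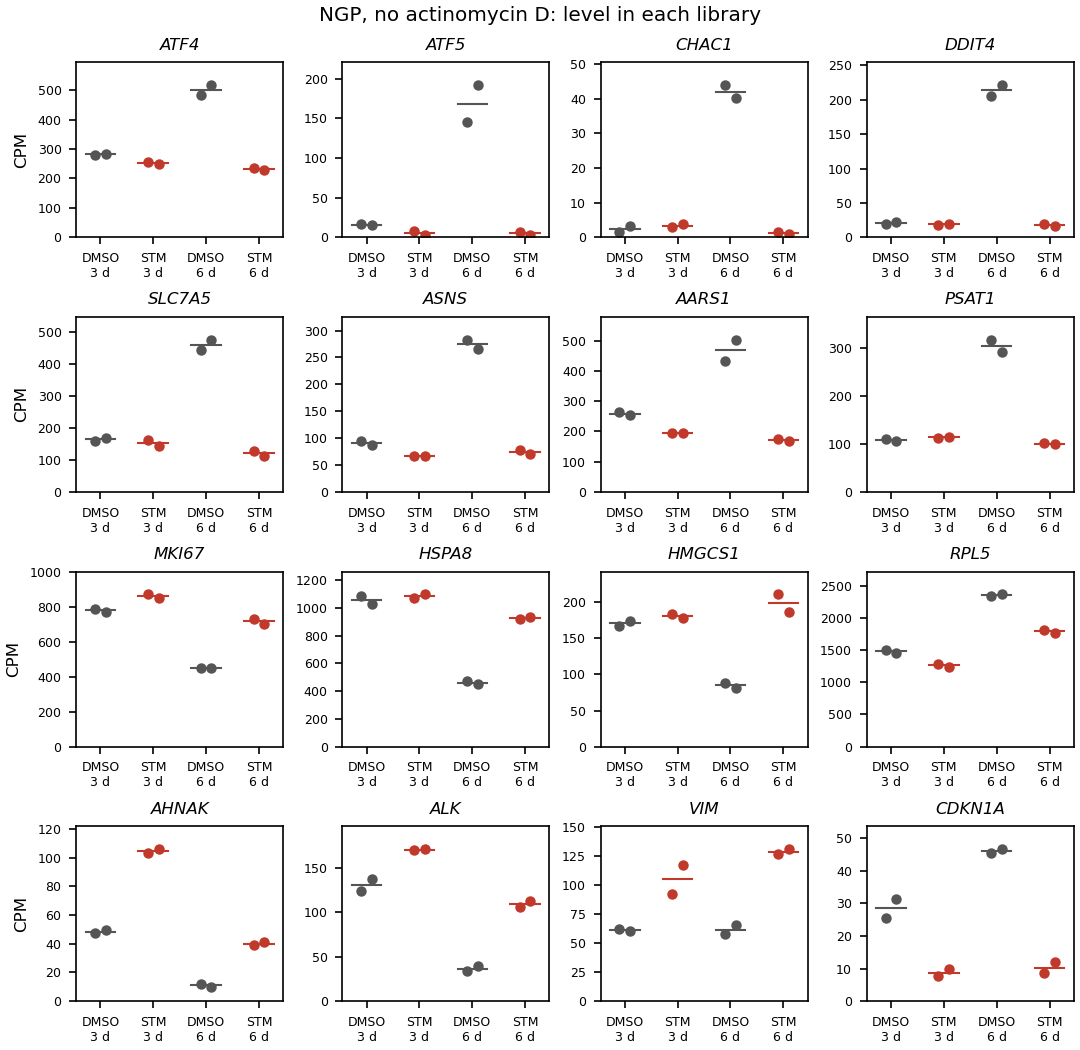
Level (CPM) of 16 genes in each of the 8 NGP libraries without actinomycin D; points are libraries, bars the mean of 2, grey DMSO and red STM2457. For ATF5, CHAC1, DDIT4 and SLC7A5 the DMSO libraries at 6 days lie above the other 6, and for MKI67, HSPA8 and HMGCS1 below them, whereas AHNAK and CDKN1A differ between the arms at both durations.

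Chaperones fold new and damaged proteins. Of 18 chaperones of the cytosol and mitochondria 8 were called higher and 3 lower, and 7 were not called (median 0.27). HSPA8, the constitutive HSP70 (chromosome 11, positions 123057489 to 123063230), was at 474 and 448 CPM in DMSO and 923 and 935 in STM2457, 2.02-fold higher. HSP90AA1 (chromosome 14, positions 102080738 to 102139699) was at 1291 and 1265 CPM in DMSO and 2173 and 2124 in STM2457, a difference of 0.75 ± 0.031 with the smallest p of all genes (adjusted p = 3.48e-33 by edgeR's quasi-likelihood test). At 3 days HSP90AA1 was at 3415 and 3312 CPM in DMSO and 2798 and 2778 in STM2457, lower with STM2457 (log2 -0.27 ± 0.031). The co-chaperones DNAJB1 (0.87 ± 0.20) and DNAJA1 (0.61 ± 0.072) were higher. HSPA1A (2.16 ± 0.52) and HSPA1B (1.59 ± 0.19) were called higher too, but they are near-identical copies whose reads cannot be assigned with certainty. The testis-enriched HSPA2 was at 7.48 and 7.37 CPM in DMSO and 20.7 and 24.7 in STM2457. The 3 lower members, HSPA9 (-0.51 ± 0.05), LONP1 (-0.49 ± 0.082) and TRAP1 (-0.26 ± 0.083), all work in mitochondria, where HSPD1 was higher (0.29 ± 0.052).

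In the endoplasmic reticulum (ER) list 8 of 19 genes were higher and 3 lower (median 0.17). Among the higher ones were the chaperones HSPA5 (BiP, 0.75 ± 0.084), HSP90B1 (0.49 ± 0.058, 11.6% of its exon bases overlapping C12orf73), CALR (0.57 ± 0.064) and PDIA4 (0.78 ± 0.085). HSPA5 was at 158 and 153 CPM in DMSO and 259 and 264 in STM2457, with the arms well apart. HERPUD1, a membrane protein of ER-associated degradation, was at 202 and 190.0 CPM in DMSO and 39.9 and 39.8 in STM2457, 4.92-fold lower. XBP1, a transcription factor of the unfolded protein response, was at 298 and 286 CPM in DMSO and 98.5 and 117 in STM2457, and EDEM1 differed by -1.14 ± 0.23. DNAJB9 (-0.30), SEL1L (-0.30) and HYOU1 (-0.087) did not pass.

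Sterol synthesis genes, which respond to SREBP2 when cell cholesterol is low, were higher as a group: 17 of 32 cholesterol and fatty acid genes were called higher and 1 lower (median 0.51). HMGCS1, at the entry of the mevalonate pathway, was at 88.6 and 81.9 CPM in DMSO and 211 and 186 in STM2457, 2.33-fold higher. FDPS differed by 0.74 ± 0.074, IDI1 by 0.75 ± 0.19, FDFT1 by 0.66 ± 0.086, SQLE by 0.64 ± 0.12 and the LDL receptor by 0.67 ± 0.14. ACAT2 differed by 0.89 ± 0.14, with 17.2% of its exon bases overlapping TCP1. SREBF1, encoding the factor that drives fatty acid synthesis, was the lower member (-0.65 ± 0.13), and SREBF2 was at -0.19 and did not pass. FASN (0.13) and ACACA (0.17) did not pass either. Without STM2457 replicate 2, 10 instead of 17 members were called higher. At 3 days none of the list was called higher and 2 were lower.

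Mitosis genes were the most uniform group on the higher side. Of 31 tested, 27 were higher in STM2457 and none lower, with a median of 0.64. MKI67, the proliferation marker Ki-67, was at 447 and 448 CPM in DMSO and 733 and 703 in STM2457, 1.60-fold higher (log2 0.68 ± 0.056). CENPF, a kinetochore protein, was at 1249 and 1218 CPM in DMSO and 1846 and 1857 in STM2457, and HMMR, a spindle protein, differed by 1.07 ± 0.11. The kinases AURKA (1.0 ± 0.19), CDK1 (0.81 ± 0.11), PLK1 (0.78 ± 0.14) and BUB1 (0.78 ± 0.13) and the cyclins CCNB1 (0.64 ± 0.13) and CCNB2 (1.0 ± 0.12) were higher. FOXM1, a transcription factor of G2 genes, differed by 0.77 ± 0.082, with 15.9% of its exon bases overlapping ITFG2. DEPDC1, a mitotic gene among the 15 largest increases, was at 13.4 and 14.9 CPM in DMSO and 31.7 and 34.9 in STM2457. Summed over the list, mitosis mRNA took 4836 and 4767 CPM in DMSO and 7418 and 7385 CPM in STM2457.

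Replication genes moved less. Of 43, 13 were higher and 1 lower (RFC4, -0.55 ± 0.16, not called without STM2457 replicate 1), with a median of 0.27. TK1 (0.85 ± 0.17) and TYMS (0.66 ± 0.14), of thymidine nucleotide supply, ORC1 (0.77 ± 0.18), FEN1 (0.76 ± 0.11) and the helicase subunits MCM3 (0.44 ± 0.063) and MCM4 (0.35 ± 0.05) were higher. MCM2 (0.14), MCM6 (0.14) and MCM7 (-0.19) did not pass. MCM7 was called lower in several other settings, among them spike-in scaling (-0.23), DESeq2 (-0.19) and limma-voom (-0.19). An E2F element (TTTCCCGC or TTTGGCGC, either strand) stood in 15 of 35 replication windows (42.9%) and 1 of 25 mitosis windows, against 3.43% of the windows of genes tested. Among the 12 called replication genes with a window, 3 held it.

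Cytosolic ribosomal protein mRNAs differed by small amounts. Of 77 tested, 52 were called lower and none higher, 76 lay below 0, and the median was -0.25. As a share of all fragments in genes they took 6.26 and 6.57% in DMSO and 5.40 and 5.37% in STM2457. RPL12 was at 743 and 745 CPM in DMSO and 532 and 552 in STM2457 (log2 -0.46 ± 0.053) and RPL5 at 2329.6 and 2363 CPM in DMSO and 1812 and 1763 in STM2457 (log2 -0.39 ± 0.036). This list differed at 3 days by about as much (median -0.23, 43 lower), and none of its members was called for the difference between durations. From 3 to 6 days it had medians of 0.37 in DMSO (70 higher, none lower) and 0.36 in STM2457 (68 higher, none lower). With spike-in scaling these were 0.20 (40 higher) and 0.049 (6 higher, 1 lower), 15 were called lower at 3 days (median -0.13), 57 at 6 days (median -0.29) and 5 for the difference between durations. The number of calls depends on the test: edgeR without a dispersion trend called 14 lower, and without DMSO replicate 2 the counts were 38 lower and 1 higher. EEF2, the translocase of the ribosome, differed by -0.19 ± 0.03. Of 22 nucleolar assembly genes 2 were higher and 1 lower, led by nucleolin (0.34 ± 0.037), with 1 higher without DMSO replicate 1 or either STM2457 library, and none lower without STM2457 replicate 2.

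Of 13 mRNAs encoded in mitochondria 5 were higher and none lower, and MT-CO2 had the largest called difference (0.37 ± 0.038), with 3769 and 3441 CPM in DMSO and 4549.8 and 4777 in STM2457. With spike-in scaling 3 were higher. DESeq2 lost the calls of MT-CO1, MT-CO3 and MT-CYB, and edgeR without a dispersion trend lost these and MT-ND2. MT-CO2 kept its call in each of these settings. DMSO replicate 2 had the lowest mitochondrial share of the 4 libraries (4.62%), and without it 3 were higher and 1 lower. Without DMSO replicate 1 there were 8 higher, and without STM2457 replicate 2 there were 3. Nuclear genes of oxidative phosphorylation showed 2 higher and 2 lower of 76, with none higher without DMSO replicate 1 or STM2457 replicate 1, 1 higher without DMSO replicate 2, and 1 lower without DMSO replicate 2 or STM2457 replicate 2. In the glycolysis and hypoxia list 4 were higher and 3 lower of 30. The glycolytic enzymes LDHA (0.37 ± 0.067), TPI1 (0.39 ± 0.057) and PGAM1 (0.52 ± 0.10) were higher, while the neural aldolase ALDOC was at 39.5 and 31.3 CPM in DMSO and 11.4 and 13.2 in STM2457, 2.88-fold lower, and hexokinase HK2 differed by -0.50 ± 0.11. CA9 (0.39), EGLN3 (0.096) and SLC2A1 (0.25), which hypoxia raises in many cells, did not pass.

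Of 18 adrenergic transcription factors, which set the lineage of neuroblastoma cells, 3 were called higher and 1 lower, beside 7.99% of all genes called in either direction. HAND2 was at 878 and 955 CPM in DMSO and 1207 and 1179 in STM2457 (log2 0.38 ± 0.055) and TFAP2B at 57.5 and 59.2 CPM in DMSO and 83.6 and 91.7 in STM2457 (log2 0.59 ± 0.14), while PHOX2A (0.44 ± 0.12) was no longer called without DMSO replicate 1 (0.36) or STM2457 replicate 1 (0.42). ISL1 (0.13) and GATA3 (-0.021) did not pass. Among mesenchymal-state genes 4 of 15 were called higher and 1 lower (none lower without DMSO replicate 2 or STM2457 replicate 1). VIM, an intermediate filament protein, was at 57.7 and 65.5 CPM in DMSO and 126 and 131 in STM2457, 2.09-fold higher. TWIST1 (0.53 ± 0.088) and FN1 (0.49 ± 0.12) were higher, whereas SNAI2 (4.18 and 4.01 CPM in DMSO and 11.8 and 12.2 in STM2457) lost its call whichever of the 4 libraries was left out (log2 1.52 to 1.58). CD44 (-0.40) and FOSL2 (0.13) did not pass.

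Of 26 neuronal genes 6 were called higher and none lower, with differences of 0.25 to 0.56 (NEFH, INA, ELAVL4, GAP43, NEFL and ELAVL2). Each of the 6 calls was lost without at least 1 of the 4 libraries, 3 were left without DMSO replicate 1, STM2457 replicate 1 or STM2457 replicate 2, and without a dispersion trend none was called higher. The neurofilament gene NEFL was at 41.5 and 59.5 CPM in DMSO and 77.2 and 66.4 in STM2457, and GAP43, a growth cone protein, at 45.9 and 61.1 CPM in DMSO and 64.5 and 79.1 in STM2457, and in both the highest DMSO library is close to the lower STM2457 library. TUBB3 (0.38), MAP2 (-0.19), DCX (0.099) and STMN2 (0.039) did not pass. In the catecholamine list 2 of 14 genes were called higher and 2 lower, and without any 1 library 1 was called higher. CHGA, chromogranin A, was one of the higher (0.54 ± 0.052), with 541 and 614 CPM in DMSO and 837 and 842 in STM2457. DBH (0.076), the noradrenaline-making enzyme, did not pass. The secretogranins SCG2 (-0.42 ± 0.11) and SCG3 (-0.30 ± 0.076) were called lower, but not without DMSO replicate 1 (-0.23 and -0.24), nor SCG2 without STM2457 replicate 1 (-0.35).

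Receptor tyrosine kinases and their partners showed larger differences. ALK, a receptor kinase often activated in neuroblastoma (chromosome 2, positions 29192774 to 29921586), was at 33.6 and 39.4 CPM in DMSO and 106 and 112 in STM2457, 2.99-fold higher (log2 1.58 ± 0.12, adjusted p = 1.70e-19 by edgeR's quasi-likelihood test). At 3 days ALK was at 125 and 137 CPM in DMSO and 170.0 and 172 in STM2457, so both arms were lower at 6 days and DMSO more so. GFRA2, the neurturin coreceptor, was at 14.8 and 14.1 CPM in DMSO and 34.4 and 35.5 in STM2457. RET, its signalling partner, was at 30.3 and 21.0 CPM in DMSO and 37.2 and 39.8 in STM2457, and its call was lost without DMSO replicate 2 (log2 0.35). NGFR, the low-affinity neurotrophin receptor, was lower (-0.66 ± 0.11). In the IGF axis IRS2, an adaptor of insulin receptors, was at 81.5 and 108 CPM in DMSO and 47.6 and 45.3 in STM2457. IGF2, the growth factor, was at 1403 and 1649 CPM in DMSO and 862 and 887 in STM2457, with 70.7% of its exon bases shared with the read-through gene AC132217.2 on the same strand. IGF1R (0.12) did not pass.

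Among 39 axon guidance genes 3 were higher and 6 lower. SLIT3, a secreted repellent, was at 95.3 and 108 CPM in DMSO and 239 and 266 in STM2457, 2.48-fold higher. SEMA5A, also among the 15 largest increases, was at 9.06 and 9.47 CPM in DMSO and 28.6 and 17.2 in STM2457, and its call was lost without STM2457 replicate 1 (log2 0.89). UNC5B was at 207 and 261 CPM in DMSO and 69.4 and 82.7 in STM2457, EPHA4 at 59.98 and 57.2 CPM in DMSO and 19.4 and 22.5 in STM2457 and the semaphorin coreceptor PLXNA3 at 37.4 and 43.9 CPM in DMSO and 18.8 and 15.8 in STM2457. PLXNA1 differed by -0.93 ± 0.084. Of 39 matrix and adhesion genes 6 were called higher and 6 lower. Without STM2457 replicate 2 these were 2 higher and 7 lower, without STM2457 replicate 1 4 and 3, and without DMSO replicate 2 5 and 3. The laminin chain LAMA5 (-1.38 ± 0.23) and the collagens COL1A1 (-0.67 ± 0.13) and COL18A1 (-0.74 ± 0.13, 18.5% of its exon bases overlapping SLC19A1) were lower, and ADAMTSL1 (2.07 ± 0.37) and COL4A1 (0.41 ± 0.11) higher. In the Notch list the receptor NOTCH1 was at 65.5 and 71.7 CPM in DMSO and 22.4 and 25.3 in STM2457, 2.88-fold lower, and the ligand-like DLK1 differed by -0.53 ± 0.074. HES1 (1.37) and HEY1 (0.067), classical Notch targets, did not pass. The calcium channel CACNA1H was at 62.8 and 50.6 CPM in DMSO and 25.9 and 21.0 in STM2457, 2.42-fold lower.

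The cell cycle inhibitor CDKN1A (p21) was at 45.3 and 46.7 CPM in DMSO and 8.52 and 11.97 in STM2457, 4.49-fold lower. It was lower at 3 days too, with 25.6 and 31.3 CPM in DMSO and 7.61 and 9.95 in STM2457. Of 24 p53 targets tested, PMAIP1 (-1.18 ± 0.22) was also lower, MDM2 was higher (0.23 ± 0.048, a call lost without DMSO replicate 2 at 0.17), and the other 21, BAX (-0.15) and CCNG1 (-0.082) among them, did not pass. Of 19 genes of the m6A machinery 4 were called higher and none lower, with 2 higher without DMSO replicate 1 or STM2457 replicate 2. The demethylases FTO (90.3 and 97.0 CPM in DMSO and 125 and 126 in STM2457) and ALKBH5 (81.1 and 89.6 CPM in DMSO and 111 and 130.3 in STM2457) were called, though FTO not without DMSO replicate 1 (log2 0.37) and ALKBH5 not without STM2457 replicate 2 (log2 0.37). RBM15, an adaptor of the writer complex, was higher (0.55 ± 0.13). METTL14 (0.39), WTAP (0.32) and the readers YTHDF1 (-0.20) and YTHDF2 (0.28) did not pass.

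Some genes differed at both durations. Of the 1172 genes called at 6 days 857 had the same sign at 3 days (73.1%). Called at both in the same direction were 230, which is 19.6% of the 6-day and 42.4% of the 542 3-day calls (3.70% of genes tested). The same-sign share over all genes tested was not computed, here or for Kelly and actinomycin D below, so these shares have no background beside them. AHNAK (chromosome 11, positions 62433542 to 62556235), a very large scaffold protein and the largest called increase above 10 CPM, was at 11.8 and 10.1 CPM in DMSO and 38.9 and 41.4 in STM2457 at 6 days and at 47.5 and 49.4 CPM in DMSO and 103 and 106 in STM2457 at 3 days. Its difference was 1.87 ± 0.18 at 6 days and 1.11 ± 0.16 at 3 days. TRIL, a Toll-like receptor accessory protein, was at 12.9 and 12.5 CPM in DMSO and 40.2 and 39.4 in STM2457 (1.65 ± 0.22), and at 1.13 ± 0.21 at 3 days. TMEM132E was at 9.98 and 10.7 CPM in DMSO and 34.3 and 32.6 in STM2457, and the protocadherin PCDH8 at 36.0 and 39.0 CPM in DMSO and 95.1 and 94.0 in STM2457. ZNF704, a zinc finger protein, differed by 0.94 ± 0.088 and 1.02 ± 0.088. On the lower side NOTCH1 (-1.52 ± 0.21 and -1.39 ± 0.22), ALDOC (-1.53 ± 0.23 and -1.34 ± 0.25) and IGF2 (-0.80 ± 0.056 and -0.70 ± 0.057) had close values at both times. Further genes of the largest 15 increases did not pass at 3 days: C1orf216 (1.41 and -0.0052 ± 0.34), CCDC120 (1.36 and 0.26 ± 0.39), HSPA2 (1.61 and 0.063 ± 0.25) and CBR1 (1.23 and 0.20 ± 0.29). Of these, C1orf216 lost its 6-day call without DMSO replicate 1 (1.27), CCDC120 without DMSO replicate 1 (0.92) or STM2457 replicate 2 (1.12), and CBR1 without DMSO replicate 2 (1.10) or STM2457 replicate 2 (1.07).

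**Figure D5:**
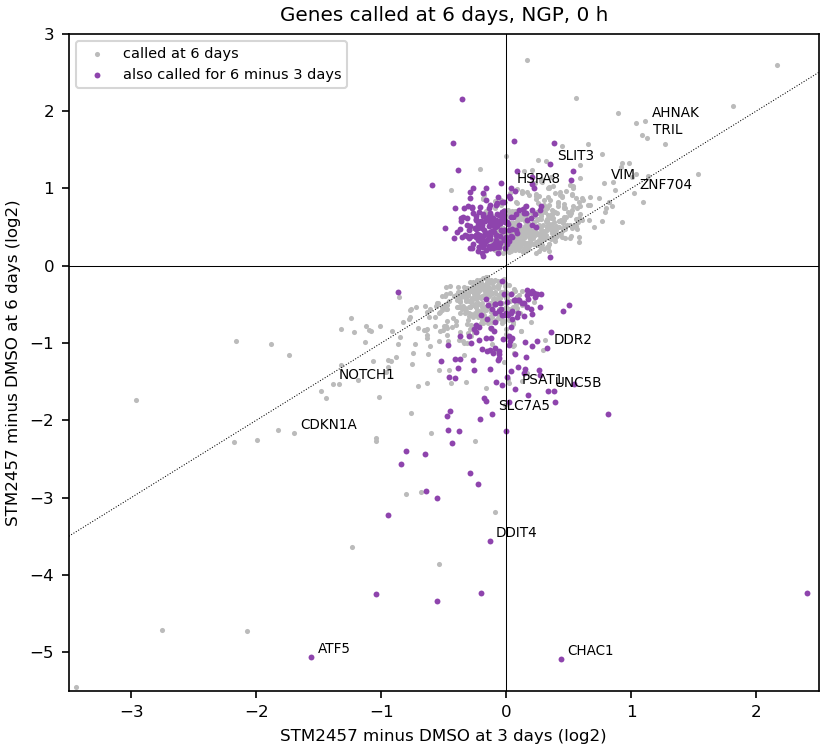
Log2 difference (STM2457 minus DMSO) at 3 days (horizontal) against 6 days (vertical) for the genes called at 6 days in NGP; purple genes were also called for the difference between durations, and the dotted line marks equal values. AHNAK, ZNF704 and CDKN1A lie toward the line, while ATF5, DDIT4 and SLC7A5 fall far below it; 7 called genes lie outside the axes.

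In Kelly cells after the same 6 days, 409 of 17343 genes tested were called higher and 253 lower. Of the 1172 genes called in NGP, 898 had the same sign in Kelly (76.6%). In the same direction 295 were called, 25.2% of the NGP and 44.6% of the 662 Kelly calls. The difference between the lines was called for 303 of 17343 genes (1.75%), 120 upward and 183 downward. With spike-in scaling these were 393 and 95, and the median of all genes in Kelly moved from 0 to -0.21. Lower in NGP relative to Kelly were 8 of 19 ISR regulators, whose median in Kelly was -0.24, and 9 of 20 tRNA synthetases (7 and 6 with spike-in scaling, where the ISR median in Kelly was -0.47). Kelly itself had 7 of 20 tRNA synthetases and 7 of 20 serine, asparagine and one-carbon enzymes lower and none higher (13 and 10 lower with spike-in scaling). Of 77 ribosomal protein genes 54 were lower there and none higher (71 lower with spike-in scaling). Of 43 replication genes 22 were higher in Kelly, and of 31 mitosis genes 12, with none lower (11 and 3 higher with spike-in scaling). ATF5 was at -0.69 ± 0.38 in Kelly, which did not pass, and at -5.07 ± 0.29 in NGP. ASNS was lower in both lines, with -0.99 ± 0.11 in Kelly. Above 10 CPM, the 4 genes of smallest p in each direction were RNF187, UNC5B, GARS1 and SLC7A5 downward, and HSP90AA1, HSPA8, ZNF704 and MT-CO2 upward. RNF187, a ubiquitin ligase, was at 225 and 238 CPM in DMSO and 73.7 and 68.0 in STM2457 in NGP. MKI67 was higher in Kelly too (0.53 ± 0.055), whereas VIM was lower there (-0.82 ± 0.19) and higher in NGP.

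The NGP libraries given actinomycin D after 6 days show how the difference looked once transcription was blocked. At 3 h, 1121 of the 1172 genes had the same sign (95.6%), and 690 were called in the same direction, 58.9% of the 0 h and 54.5% of the 1267 calls at 3 h (8.64% of genes tested). At 6 h 978 had the same sign (83.4%), and 459 were called in the same direction, 39.2% of the 0 h and 34.2% of the 1343 calls at 6 h (9.16%). Spike-in scaling moved the median of all genes from 0 to 0.061 at 3 h and from 0 to 0.38 at 6 h, where the spike-ins took 0.589 and 0.594% of fragments in DMSO against 0.461 and 0.462% in STM2457. With spike-in scaling 4530 genes were called higher and 120 lower at 6 h, against 712 and 631 with TMM, and 61.4% of the genes called at 0 h on that scale had the same sign. Directions at 6 h are therefore given on both scales.

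The ISR list had a median of -1.77 at 3 h (14 lower, 1 higher; -1.70 with spike-in scaling). At 6 h it was -0.21 (3 lower, 2 higher) with TMM and 0 (2 lower, 5 higher) with spike-in scaling, the fitted value of GDF15. DDIT4 differed by -1.40 ± 0.27 at 3 h and was at -0.79 ± 0.32 at 6 h, which did not pass. ATF5 differed by -4.52 ± 0.28 at 3 h and -1.67 ± 0.27 at 6 h, where it was also called lower with spike-in scaling (-1.28). ATF4 was higher with STM2457 at 3 h (0.46 ± 0.086), and its lower call at 6 h (-0.46 ± 0.086) was lost with spike-in scaling (-0.072). TRIB3 was at -3.0 at 0 h and at 2.26 ± 0.71 at 6 h (2.62 with spike-in scaling). Mitosis genes had a median of 0.49 at 3 h (20 higher, none lower) and 0.38 at 6 h (16 higher, 1 lower), and at 6 h with spike-in scaling 26 were higher and none lower (0.76). Ribosomal protein genes had -0.21 at 3 h (49 lower, 1 higher) and -0.25 at 6 h (52 lower, 1 higher), but 0.14 at 6 h with spike-in scaling (2 lower, 32 higher). Cholesterol and fatty acid genes had 0.40 at 3 h (15 higher, 2 lower) and -0.14 at 6 h (6 lower, none higher), a sign that turned with spike-in scaling (0.25, 13 higher, 1 lower). The cause of the spike-in difference between the arms at 6 h was not tested.

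Gene structure is given as a description. The median exon length was 5545 bp for higher, 5470 bp for lower and 5112 bp for all genes tested. Genes with a single exon made up 2.91% of the higher, 4.81% of the lower and 2.94% of all genes. Across 5 equal bins of exon length the share called higher was 3.82% in the shortest (135 to 2858 bp) and 5.69% in the longest (8443 to 118976 bp). The share called lower was 3.41% and 4.30% in these bins, and their median log2 differences were 0.021 and 0.026. Called genes were better measured than the rest, with median levels of 93.9 CPM (higher) and 110.9 CPM (lower) against 21.4 CPM over all genes.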

How the data were processed

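The values start from the authors' deposited counts: whole fragments per gene name for 19923 protein-coding genes and 92 ERCC sequences, one file per library. Per the submitters' processing notes, FastQC 0.11.5, Trimmomatic 0.36, HISAT2 2.1.0 and featureCounts (Subread 1.5.3) were used, with GRCh38 and GENCODE release 33. Strand and multimapping options are not given in the sources used here. Per the labels, RNA was poly(A)-selected and made into cDNA with a SMART kit. For 18 gene names the file gives 2 chromosomes.

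From these counts, edgeR 4.0.16 (R 4.3.3) was fitted with TMM scaling and the quasi-likelihood test to all 24 NGP libraries in 12 groups, after filterByExpr (minimum count 10, minimum total 15). The fit over 48 libraries gave the difference between NGP and Kelly. Differences are log2 STM2457 minus DMSO ± SE, p-values are Benjamini-Hochberg adjusted over all genes, and CPM values are TMM-scaled. The test was tried on simulated counts first. Alternatives used limma 3.58.1, DESeq2 1.42.0, other scalings, filters, library sets and each library left out. Replicate numbers did not pair the libraries: the correlation of same-numbered deviations was -0.0059 in this comparison, and over 0.1 in 1 of 66 pairs of NGP groups. Replicates differed beyond sampling noise, with a chi-square per degree of freedom of 12.3 (DMSO) and 9.14 (STM2457).

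The comparison, the gene lists and the tests were chosen with earlier results of these data known. Genes were named by rule: METTL3 and MYCN, the 15 largest called differences in each direction at a mean of at least 10 CPM, the 10 smallest p-values, up to 6 called and 2 uncalled members per list, 4 genes per direction for each difference of differences, and the 5 most abundant called genes. Other list members were named after their values were seen, as were the contrasts between 3 and 6 days within each arm and the spike-in scaling of list values outside the 6-day comparison. Promoter windows come from RefSeq (GRCh38.p14; 27305 symbols, first listed window each). Results for some members of the lists are not reported here.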

Additional observations from a re-analysis of the deposited data

Results flagged for a closer look

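These genes, from those of smallest p in the comparison or in a difference between comparisons, passed edgeR's quasi-likelihood test of the difference of the STM2457 effect itself. Values are differences of log2 differences.

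Between 6 and 3 days in NGP, genes more negative at 6 days were ATF5 (-3.51), AKNA (-1.72), SLC7A5 (-1.81), ASNS (-1.42), RNF187 (-1.53), UNC5B (-1.96), PSAT1 (-1.66), AARS1 (-1.05), GARS1 (-1.09) and DDR2 (-1.40). Genes more positive at 6 days were TUBA1B (0.64), HSP90B1 (0.98), HSP90AA1 (1.02), HSPA8 (0.97) and SLIT3 (0.96).

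Between the lines at 6 days, genes more negative in NGP than in Kelly were ATF5 (-4.38), AKNA (-2.30), SLC7A5 (-1.53), ASNS (-0.89), RNF187 (-1.87), UNC5B (-1.91), PSAT1 (-1.39), AARS1 (-1.05), GARS1 (-1.10) and DDR2 (-0.85). Genes more positive in NGP were MT-CO2 (0.69), HSP90B1 (0.59), HSP90AA1 (0.60), ZNF704 (0.86), HSPA8 (0.80) and SLIT3 (0.60). The genes were taken from those of smallest p, so they are examples and not a sample of all genes. Explanations for these differences were not tested.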

How the results depend on the processing

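Across scaling, filter, tool and library choices the number of genes called at 6 days ran from 626 to 1542, against 1172. No gene called in the comparison reported here changed sign in any of them. With the arms of every called gene apart, a change of sign was hardly possible, so this is no separate evidence. edgeR without a dispersion trend gave the lowest counts: 626 called (352 higher, 274 lower), 119 for the 6-day minus 3-day difference, 136 for NGP minus Kelly, 596 at 3 h and 655 at 6 h of actinomycin D. Fitting the 0 h libraries alone called 1542 genes, 786 of them lower, and 557 for NGP minus Kelly. DESeq2 called 660 genes for the difference between durations and 459 for that between lines. Scaling to the ERCC spike-ins gave 488 for the lines and 4650 at 6 h of actinomycin D. The causes were not tested.

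Leaving out each library in turn left 814 to 918 genes called, 439 to 473 higher and 363 to 445 lower. The same gave 332 to 397 genes for the difference between durations, 242 to 313 for the lines, 805 to 881 at 3 h and 915 to 1203 at 6 h. With a library left out, its arm holds a single library that is assumed to vary like the other groups. Of the named genes, 2 that were not called were called in opposite directions depending on the library left out: MYCN ranged from -0.27 to 0.14 and MT-ND4 from -0.13 to 0.12. MYCN was called lower without DMSO replicate 1 (-0.27) or STM2457 replicate 2 (-0.15) and higher without DMSO replicate 2.

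With the replicate number as a block, 1246 genes were called (693 higher, 553 lower), 428 for the durations, 313 for the lines, 1328 at 3 h and 1423 at 6 h. Depth sets a floor of 0.163 to 0.195 CPM (3 fragments) per library, for counting error only.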
